A study of Homo sapiens with 3 samples.

Results

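The cells described here were selected on their somatostatin RNA. They were barcodes with at least 25 SST UMIs per 10000 UMIs of the cell and with fewer than 25 per 10000 each of GCG, which encodes glucagon, and GHRL, which encodes ghrelin. A UMI, or unique molecular identifier, marks 1 captured RNA molecule. Barcodes outside 1000 to 40000 UMIs, with fewer than 500 genes or with over 20% of UMIs from mitochondrially encoded genes were left out. Of the 25463 cells kept among 29021 barcodes, 116 were SST-high. They were 18 of 8294 HET cells, 9 of 8681 KO cells and 89 of 8488 WT cells.

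H1 is a long-established line of human embryonic stem cells. It was differentiated toward pancreatic beta cells and read as 3 libraries of 10x Genomics droplet RNA sequencing. The libraries were heterozygous (HET, PAX6+/-), homozygous mutant (KO, PAX6-/-) and wild type (WT) for PAX6, a transcription factor gene of the eye, brain and pancreatic islet. The sources used here give neither the type and position of the PAX6 lesion nor the number of edited clones or the day of culture. With 1 library per genotype, genotype and library cannot be told apart, and no p-value is given anywhere. The SST-high cells held 200419 UMIs in HET, 110591 in KO and 1157478 in WT, with a median of 11160 per cell in HET, 12480 in KO and 10300 in WT. The 95% intervals below are exact and cover counting error only.

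Delta cells are the somatostatin-secreting cells of the islet. Somatostatin acts on neighbouring beta and alpha cells through G protein-coupled receptors and restrains the release of insulin and glucagon. HHEX, a homeodomain transcription factor, is needed in mouse for delta cells to form and to keep their identity. It is also made by early endoderm and liver. SST is made as a preprohormone that is cut at basic residues into a longer and a shorter active peptide.

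The end of the SST coding sequence is shown because it encodes the product by which the cells were chosen. SST lies on chromosome 3, 187668906 to 187670399, minus strand (GENCODE 29 on GRCh38). The last 28 of its 116 codons, which encode somatostatin-28, end in the 14 codons of somatostatin-14, set in capitals. The 6 bases before the capitals are a pair of codons for basic residues, at which the prohormone is cut.
SST coding end: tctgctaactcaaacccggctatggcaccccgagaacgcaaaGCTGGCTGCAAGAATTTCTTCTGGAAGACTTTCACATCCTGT

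The 250 bases before the RefSeq start of the gene are shown because the level of SST RNA chose the cells and divides them below. They are chr3:187670395-187670644 on the minus strand (GRCh38.p14, RefSeq promoter table), written 5′ to 3′ in the direction of transcription. Capitals mark the 2 matches found when both strands were searched for the cAMP response element TGACGTCA, the site through which cAMP signalling is known to act on this gene, and for the homeodomain core TAAT (ATTA on the other strand). Positions are counted from the RefSeq start, which lies a few bases inside the GENCODE gene given above. TGACGTCA began at position -47, and 578 of 35116 promoters of the same length (1.65%) held it. TAAT began at position -94, and 16660 promoters (47.4%) held it. These matches describe letters and were not tested as binding sites.
SST promoter: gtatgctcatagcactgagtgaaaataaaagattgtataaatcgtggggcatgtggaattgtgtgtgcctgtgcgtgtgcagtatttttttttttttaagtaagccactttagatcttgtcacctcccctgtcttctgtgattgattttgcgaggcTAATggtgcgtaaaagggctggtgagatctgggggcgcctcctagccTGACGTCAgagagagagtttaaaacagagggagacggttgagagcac

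SST-high cells were rarest in the KO library and most frequent in the WT library. They made up 0.217% of kept HET cells (0.129 to 0.343), 0.104% of KO cells (0.0474 to 0.197) and 1.05% of WT cells (0.843 to 1.29). Other kept cells also reached the SST level but were left out for GCG or GHRL. Of 49 HET cells at that level 31 failed on GCG, as did 2 of 16 in KO and 85 of 175 in WT. GHRL was over its limit in 3 HET cells, which also failed on GCG, in 5 KO cells and in 1 WT cell. SST RNA was also present at low levels outside these cells. Kept cells with no UMI of the endocrine gene CHGA held 13.4 SST counts per 1000000 UMIs (plain CPM) in HET, 2.04 in KO and 35.2 in WT, against 93310, 4178 and 93260 in SST-high cells.

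The SST level within the class spanned more than 2 orders of magnitude in HET and WT. HET cells ranged over 27.0 to 4128 SST UMIs per 10000 with a median of 90.0, and WT cells over 25.4 to 3834 with a median of 344.2. The 9 KO cells had 27.2 to 95.4 per 10000, with a median of 34.2. For description the cells were divided into a low band (25 to 100 per 10000), a middle band (100 to 1000) and a top band (1000 or more), with limits chosen after the values were seen. These bands are ranges of 1 continuous measure and not cell types. From low to top they held 10, 3 and 5 HET cells and 31, 29 and 29 WT cells, while all 9 KO cells were in the low band. No KO cell that met the GCG and GHRL limits reached 100 per 10000, where 3 cells would be 0.0346% of kept KO cells. In the top band SST alone took 26.0% of all UMIs in HET and 23.8% in WT. That band held 94.2% of the SST counts of HET SST-high cells and 83.5% of those in WT.

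The 5 HET cells of the top band had 7497, 2705, 1211, 3114 and 3091 SST UMIs, and 2, 10, 7, 12 and 3 HHEX UMIs in the same order. All 5 stood among the top 8% of doublet scores of their library, a measure of likeness to simulated mixtures of 2 cells, against 2 of the 29 WT cells of that band. Over all SST-high cells, 9 of 18 in HET, 0 of 9 in KO and 10 of 89 in WT had such scores. The part of doublets in the results was not tested, since the caller marked no barcode in any library. HHEX, PAX6 and the counts of genes are also given below with the top 8% of scores removed. That removal left 9 HET and 79 WT SST-high cells and no cell in the HET top band, so HET values of that band have no such counterpart.

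**Figure D1:**
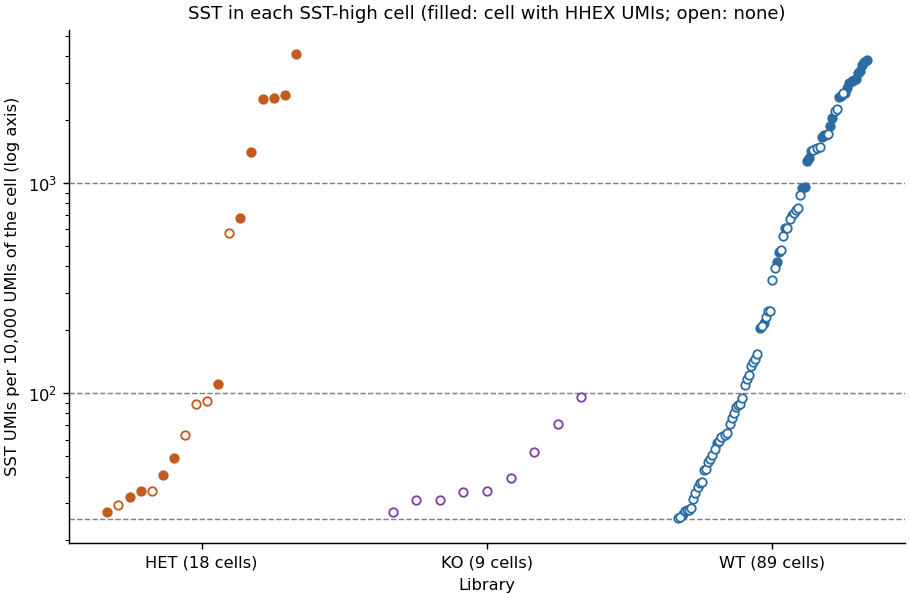
SST UMIs per 10000 UMIs (log axis) in each SST-high cell of the HET, KO and WT libraries, in rising order; filled points had at least 1 HHEX UMI and dashed lines mark 25, 100 and 1000 per 10000. The 9 KO points are all open and below 100, and 22 of the 29 WT cells at 1000 or more are filled.

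HHEX, on chromosome 10 (92689951 to 92695646, plus strand), stood with high SST. It was detected in 12 of 18 HET cells with 54 UMIs in all, in 0 of 9 KO cells and in 33 of 89 WT cells with 248 UMIs. To compare cells of different depth, each was thinned to 2000 UMIs, which left out 3 HET cells and 1 WT cell. The share with an HHEX UMI, averaged over all possible draws, was then 38.0% in HET, 0% in KO and 21.4% in WT. In 1 draw it was 5 of 15 HET cells (11.8% to 61.6%), 0 of 9 KO cells (up to 33.6%) and 16 of 88 WT cells (10.8% to 27.8%). The thinned average in INS-only cells, which held INS but little SST, GCG or GHRL, was 3.43% in HET, 0.783% in KO and 1.34% in WT. HHEX was not limited to endocrine cells. In 1000 cells drawn per library from those without CHGA UMIs, the thinned average was 14.3% in HET, 7.75% in KO and 7.67% in WT. Their unthinned shares were 50.6% in HET, 34.1% in KO and 32.1% in WT, at median depths of 13150, 14380 and 13660 UMIs, against 66.7%, 0% and 37.1% in SST-high cells.

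The class was not uniform in HHEX. Levels within the class are given as counts per 1000000 UMIs other than SST (SST-free CPM). WT cells held 27.6 SST-free CPM of HHEX in the low band, 69.0 in the middle band and 735.9 in the top band, with HHEX detected in 3 of 31, 8 of 29 and 22 of 29 cells. HET cells held 133.8, 256.7 and 678.7 over the same bands, detected in 5 of 10, 2 of 3 and 5 of 5 cells. In the HET low band 9 of the 15 HHEX UMIs were in 1 cell. Thinned averages in WT were 2.79% in the low band, 11.7% in the middle band and 50.4% in the top band. The KO cells had 0 HHEX counts, which allows up to 27.1 plain CPM. Across the 89 WT cells HHEX had the highest Spearman correlation with the SST share of all 1766 genes with at least 100 counts (rho = 0.63), followed by CRH (0.49), PCP4 (0.49) and CBLN2 (0.45). These cells share 1 library, and the mitochondrial share of UMIs had a rho of -0.60 with SST over the same cells. That share was taken of all UMIs, SST included, so part of the negative relation is built in. HHEX, the marker that goes with the name delta cell, was thus frequent in the top band, found in 3 of 31 cells of the WT low band and in no KO cell, so the cells are called SST-high throughout.

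PAX6 RNA, from the gene targeted in the study (chromosome 11, 31784779 to 31818062, minus strand), was found in SST-high cells of every library. There were 27 UMIs in 8 of 18 HET cells, 45 in 5 of 9 KO cells and 340 in 64 of 89 WT cells. In plain CPM this was 134.7 in HET (88.8 to 196), 406.9 in KO (296.8 to 544.5) and 293.7 in WT (263.3 to 326.7). These counts do not check the genotype, because the position of the lesion is not known here and a mutant allele can still be transcribed. Set against the WT cells on the scale explained below, PAX6 was 2.33-fold lower in HET (1.57 to 3.59). Its log2 ratio of -1.22 was -0.37 once cells with the top 8% of doublet scores were left out, and -2.05 in cells with 3000 UMIs or more and 10% mitochondrial UMIs or fewer. It was -3.83 among cells with INS under 25 per 10000, and -4.18 in the top band, each on 1 HET count. In the top band PAX6 had 1 UMI in 1 of 5 HET cells, and 90 UMIs in 21 of 29 WT cells.

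Most SST-high cells also carried insulin RNA. INS (chromosome 11, 2159779 to 2161341, minus strand) reached 25 per 10000 in 11 of 18 HET cells (61.1%, 35.8 to 82.7), 2 of 9 KO cells (22.2%, 2.81 to 60.0) and 59 of 89 WT cells (66.3%, 55.5 to 76.0). INS per 10000 had a median of 52.2 in HET (0 to 306.7), 4.41 in KO (0 to 109.2) and 70.1 in WT (0 to 443.8). The 3 ranges overlapped. In WT the share at 25 per 10000 was 61.3% in the low band, 55.2% in the middle band and 82.8% in the top band, or 19 of 31, 16 of 29 and 24 of 29 cells. After thinning, the average share with an INS UMI was 77.5% in HET, 48.0% in KO and 85.6% in WT SST-high cells, against 8.10%, 3.07% and 13.3% in cells without CHGA UMIs. The share depended on the limit. At 100 per 10000 it was 27.8% in HET and 33.7% in WT, and at 10 per 10000 it was 80.9% in WT.

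**Figure D2:**
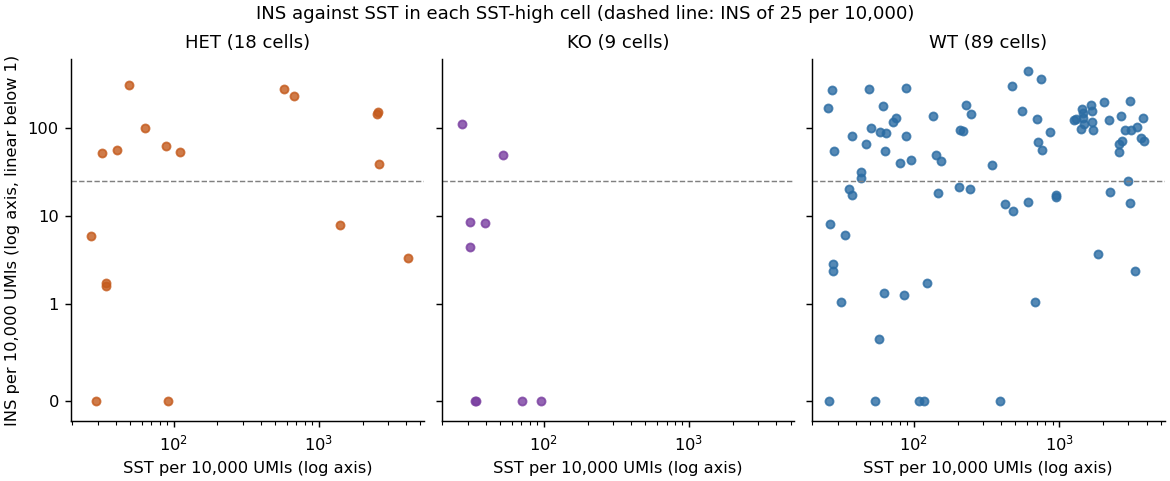
INS against SST, both per 10000 UMIs on log axes (INS linear below 1), in each SST-high cell of the HET, KO and WT libraries. Points above the dashed line had INS at 25 per 10000 or more, which held for 11 HET, 2 KO and 59 WT cells.

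SST-high cells with and without INS at 25 per 10000 were compared within HET and within WT in SST-free CPM. Of 931 genes past the minimum level in both libraries, 12 (1.29%) were at least 2-fold higher in the cells with INS in both and 4 (0.43%) at least 2-fold lower. INS itself drew the split. IAPP, the amylin gene co-secreted with insulin, had 44 counts with INS and 0 without it in HET, and 229 with INS and 2 without it in WT. Those with INS came from only 3 of 11 HET and 16 of 59 WT cells, and 1 HET cell held 34 of the 44. PYY, a gut and islet peptide, was 2619 and 23.4 SST-free CPM with and without INS in HET, and 2473 and 425.4 in WT. Single cells held 129 of the 252 HET and 650 of the 1543 WT PYY counts with INS. SCG5, the chaperone of the prohormone convertase PCSK2, was 1206 and 93.6 SST-free CPM in HET, and 1088 and 352.5 in WT. HHEX was also higher with INS, at 405.3 and 175.4 SST-free CPM in HET and 306.1 and 134.0 in WT, 2.31-fold (1.25 to 4.51) and 2.29-fold (1.69 to 3.13). In HET, 29 of the 39 HHEX UMIs with INS were in top-band cells. In WT, 212 of all 248 HHEX UMIs were in top-band cells, and 24 of those 29 cells had INS. Outside the WT top band, HHEX counts were fewer in the cells with INS than in those without. The split by INS thus does not separate INS from the SST band for HHEX. With the top 8% of doublet scores removed, HET held 2 HHEX UMIs in 5 cells with INS and 1 in 4 cells without it, too few for a ratio, while WT held 311.6 and 130.5 SST-free CPM. LMO2, PLK2, DCX, SLC7A2 and the granin SCG3 were higher with INS too. The 4 genes lower with INS were ANXA2, CALD1, YBX3 and S100A11, which encode annexin, actin-binding, RNA-binding and calcium-binding proteins.

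Top-band WT cells were then set against low-band WT cells, again in SST-free CPM, as a comparison added after the values were seen. Of 3878 genes with at least 50 SST-free CPM in either band and 30 counts in both together, 206 (5.31%) were at least 2-fold higher in the top band and 222 (5.72%) at least 2-fold lower. The counting interval left out equal levels for 192 and 199 of them. Of the delta cell list of 24 genes, 9 passed the minimum. All but SEC11C were at least 2-fold higher, none was 2-fold lower, and the median log2 ratio was 1.39 against 0.03 for all genes. The list was chosen with earlier results of these data known, and SST, its first member, drew the bands.

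Among delta genes, LEPR, the leptin receptor, was 159.7 SST-free CPM in the top band and 20.1 in the low band, detected in 17 of 29 and 7 of 31 cells. BCHE, a cholinesterase, was 125 and 40.1 SST-free CPM. RBP4, a retinol carrier, was 138.9 and 57.7 SST-free CPM. These genes overlapped between the bands cell by cell, since each was undetected in some cells of both. RBP4 was also not limited to endocrine cells. Its thinned average share in SST-high cells was 5.51% in HET, 12.95% in KO and 12.8% in WT. In the 1000 drawn cells without CHGA UMIs it was 7.98%, 18.3% and 13.2%. Of the transcription factors, ISL1 was 1663 SST-free CPM in the top band and 782.1 in the low band, and PDX1 was 440.9 and 167.9. Both are islet homeodomain factors that adult delta cells share with beta cells. The delta markers PRG4, EHF and GHSR had 0 counts in HET and WT SST-high cells.

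Other islet transcription factors went in both directions with SST. IRX2 was 270.8 SST-free CPM in the top band and 57.7 in the low band. NKX6-1, the beta cell factor, was 24.3 and 102.8, or 4.23-fold lower. Of 33 islet transcription factors past the minimum, 6 were at least 2-fold higher and 3 lower, with a median log2 ratio of 0.15. PAX6 was not among these, at 312.4 and 345.9 SST-free CPM.

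The hormones divided in the same comparison. CRH, which encodes corticotropin-releasing hormone, was 343.7 SST-free CPM in the top band and 10.0 in the low band, and was detected in 17 of 29 and 2 of 31 cells. INS was 13730 and 5703 SST-free CPM, and GHRL, held under its limit by the rule, was 284.7 and 110.3. PYY was 125 and 3229 SST-free CPM, 25.8-fold lower, and PPY, the pancreatic polypeptide gene, was 479.1 and 2980. Single cells held 26 of the 36 top-band and 650 of the 1288 low-band PYY counts, and 122 of the 138 and 401 of the 1189 PPY counts. CGA, the common subunit of the glycoprotein hormones, was 326.3 and 7.52 SST-free CPM, but its counts came from 5 of 29 and 1 of 31 cells. The synaptic organiser gene CBLN2 was 343.7 and 32.6 SST-free CPM, in 21 of 29 and 7 of 31 cells.

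Settings added after the values were seen moved some of these ratios. With the highest cell of the gene left out of each band, PYY was 46.3-fold lower (35.5 and 1646 SST-free CPM) and PPY 36.0-fold lower (56.6 and 2041). HHEX was then 41.6-fold higher, in place of 26.7-fold, CRH 103.7-fold, in place of 34.3-fold, and RBP4 3.99-fold, in place of 2.41-fold. With the top 8% of doublet scores removed, ISL1 was 1.56-fold higher, in place of 2.13-fold, and no longer 2-fold apart. HHEX and CRH then rested on 2 and 1 low-band counts.

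Of 19 hormone processing and granule genes 16 passed the minimum, of which 2 were at least 2-fold higher and 4 lower, with a median log2 ratio of -0.26. PCSK1, a convertase, was 267.3 SST-free CPM in the top band and 110.3 in the low band. SCG2, a granin, was 541.5 and 1529, SCG3 was 451.3 and 955, and the amidating enzyme gene PAM was 41.7 and 157.9. RAB3B, a vesicle GTPase gene, was 656.1 and 258.2 SST-free CPM. SSTR2, a somatostatin receptor gene, was 374.9 and 892.4 SST-free CPM, 2.38-fold lower in the top band.

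Of 7 liver genes past the minimum, 4 were at least 2-fold lower in the top band and none higher. AFP was 59.0 and 265.7 SST-free CPM and FGG 59.0 and 371. VIM and TAGLN, both mesenchymal genes past the minimum, were lower, VIM at 329.8 and 1063 SST-free CPM. Of 9 neuronal genes 1 was higher and 3 were lower. The median mitochondrial share of all UMIs, SST included, was 4.05% in the top band and 7.38% in the low band. The median depth was 12000 and 10020 UMIs. The part of these values in the band differences was not tested. Single cells carried some of the lower calls: in 19 of 222, 1 cell held over 50% of the low-band counts, such as CCNO, whose 62 low-band counts were in 1 cell.

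The HET cells, 5 in the top and 10 in the low band, gave the same order for some of these genes. Top and low bands held 1118 and 338.9 SST-free CPM of ISL1, 99.8 and 0 of LEPR, and 179.7 and 0 of CBLN2. LEPR had only 5 top-band counts, 4 of them in 1 cell. All 5 top-band cells had top doublet scores, so the HET order of every gene here rests on such cells. PDX1 was 99.8 and 124.8 SST-free CPM, so the WT order was not seen for it, with 5 top-band counts. PYY was 2575 and 276.4 SST-free CPM, the opposite order to WT, with all 129 top-band counts in 1 cell.

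**Figure D3:**
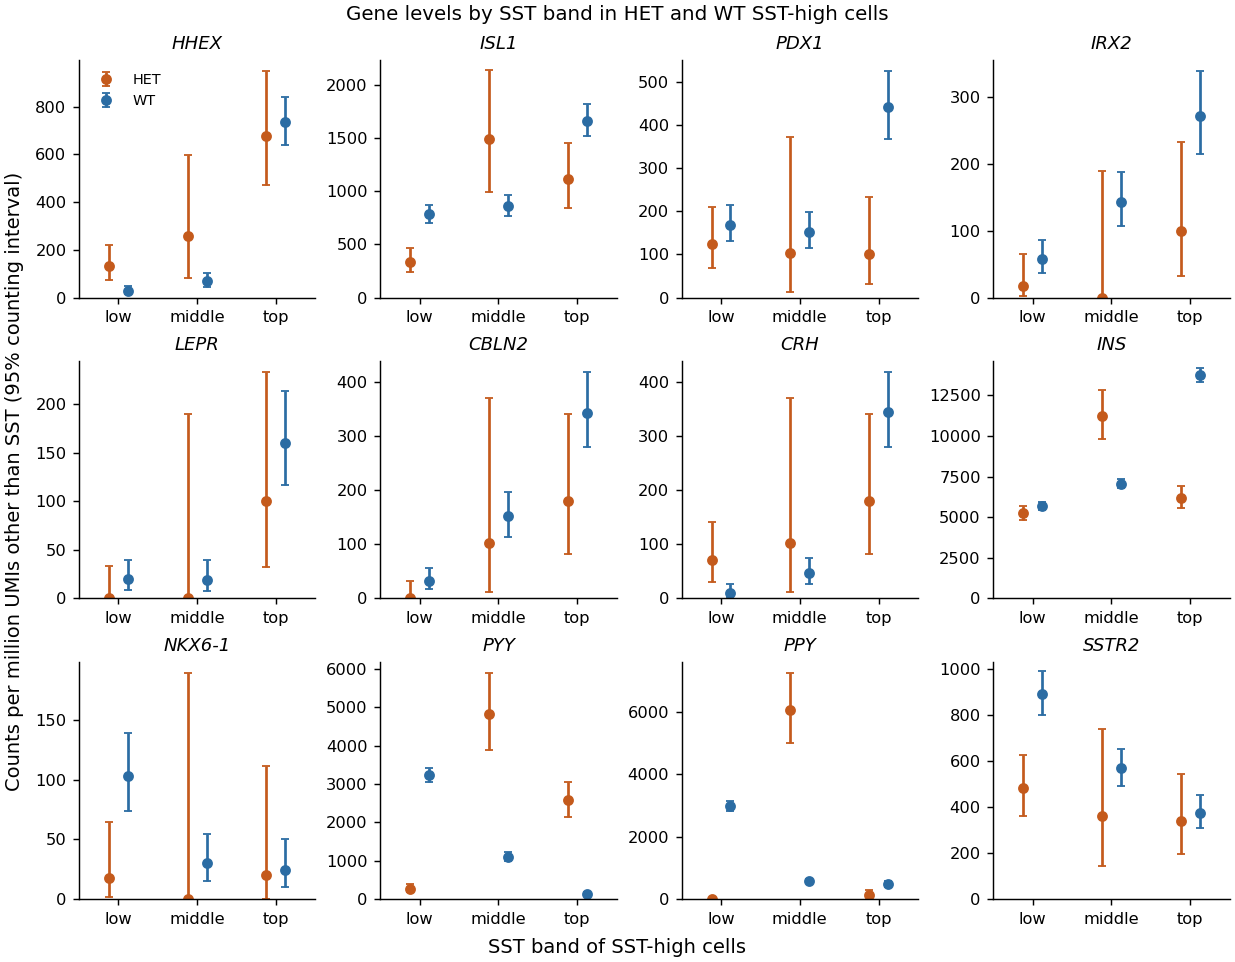
Levels of 12 genes, in SST-free CPM, in the low, middle and top SST bands of HET and WT SST-high cells; bars are exact 95% counting intervals of the summed cells. HHEX is highest in the top band of both libraries, while in WT PYY and PPY are lowest there.

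The whole class was also set against INS-only cells, with INS at 25 per 10000 or more and SST, GCG and GHRL each under 25. There were 116 of them in HET and 329 in WT. Counts were summed per class and library and scaled to CPM with trimmed-mean (TMM) factors. A gene counted as different when it was at least 2-fold apart in the same direction in both libraries. This held for 9 of 3203 genes that were higher (0.281%) and 36 that were lower (1.12%). On this scale the median log2 ratio of all genes was -0.18 in HET and -0.11 in WT, and 0.00 in both in SST-free CPM. That scale gave 30% of calls as higher, in place of 20%.

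The 9 higher genes were SST, which the rule fixed, HHEX, PPY, C5orf38, CBLN2, FGF14, GHRL, IGFBP6 and ZNF503. Of these calls 2 remained without the top doublet scores, 6 with the stricter cell filter and 7 without the deepest SST-high cell of each library. In HET, GHRL had a log2 ratio of -2.01 under the first of these settings, PPY -1.48 under the second and IGFBP6 -2.63 under the third. HHEX was 255.1 CPM in SST-high and 20.7 CPM in INS-only cells of HET, 12.3-fold higher (8.05 to 19.1). In WT it was 216.9 and 7.66 CPM, 28.3-fold higher (20.1 to 41.0). Leaving out the top doublet scores, its log2 ratio was 1.06 in HET, in place of 3.63, and 5.26 in WT, in place of 4.82. PPY was 590.6 and 86.8 CPM in HET, and 1343 and 384.5 CPM in WT. Of the 125 HET counts of PPY, 118 were in 1 cell. C5orf38, the divergent neighbour of IRX2, was 52.0 and 15.5 CPM in HET, and 58.6 and 11.1 CPM in WT. CBLN2 was 52.0 and 20.1 CPM in HET, and 146.1 and 35.1 CPM in WT.

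Genes lower in SST-high cells included beta cell and enterochromaffin genes. NKX6-1 was 14.2 CPM in SST-high and 133.8 CPM in INS-only cells of HET, 9.44-fold lower (3.19 to 46.1), and 51.6 and 153.9 CPM in WT, 2.98-fold lower (2.29 to 3.96). SLC30A8, the granule zinc transporter, was 70.9 and 284.6 CPM in HET, and 212.5 and 739.5 CPM in WT. PAX4, a factor of beta and delta lineage choice in mouse, was 37.8 and 127 CPM in HET, and 58.6 and 119.9 CPM in WT. TPH1, the serotonin-synthesis enzyme gene, had 0 and 447 counts in HET, at least 16.3-fold lower against a floor of 3 counts in the SST-high sum, and was 17.5 and 60.2 CPM in WT. SCGN, a calcium-binding secretagogin, was 99.2 and 558.3 CPM in HET, and 202 and 651.9 CPM in WT. GAST, the gastrin gene, was 335.5 and 2629 CPM in HET, and 340.2 and 935.6 CPM in WT. Single SST-high cells held 66 of the 71 HET and 227 of the 389 WT counts of GAST.

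The beta cell list had 13 of 24 genes past the minimum, of which 3 were lower in both libraries and none higher. Their median log2 ratio was -1.02 in HET and -0.62 in WT. Other lists of endocrine genes also had medians under that of all genes, at -0.94 and -0.43 for pan-endocrine genes, -0.79 and -0.33 for alpha cell genes, -1.14 and -0.51 for enterochromaffin genes and -1.23 and -0.39 for ion channel and electrical genes, HET before WT in each. The delta list had 6 of 24 past the minimum, with 2 higher, which were SST, fixed by the rule, and HHEX. NEUROD1, a factor of all endocrine cells, was 189 and 708 CPM in HET, and 251.9 and 552.7 CPM in WT. INS was 5287 and 10730 CPM in HET, and 7687 and 11700 CPM in WT, where INS chose the INS-only cells. The remaining lower genes named by rank were CXCL12, NR3C1, TSPAN1, BTBD17, TSPAN5, CALB2 and KCNB2.

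**Figure D4:**
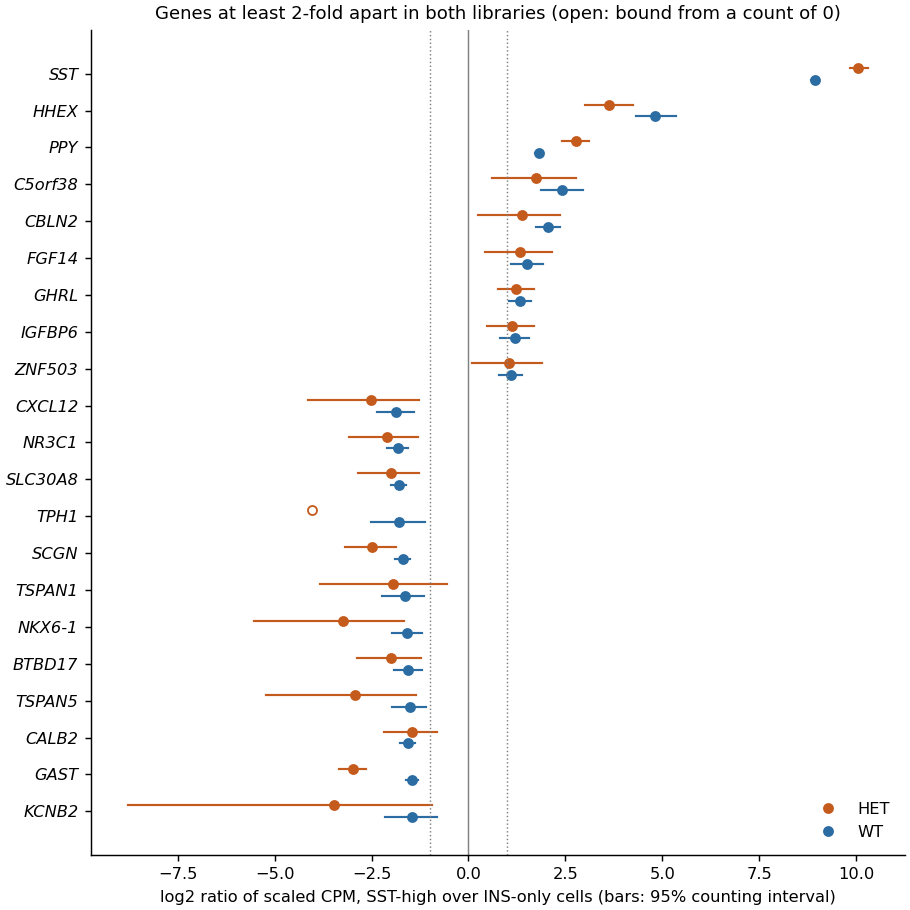
Log2 ratio of scaled CPM in SST-high over INS-only cells, within HET and within WT, for the 21 genes named by rank; bars are 95% counting intervals, dotted lines mark 2-fold and the open point is a bound from a count of 0. HHEX stands at 3.63 in HET and 4.82 in WT, and NKX6-1 at -3.24 in HET and -1.58 in WT.

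HHEX was low in the other hormone classes too, with thinned averages of 2.31% of HET and 1.67% of WT cells with both INS and GCG. In GHRL-high cells the thinned average was 3.25% in HET and 1.50% in WT. Before thinning, 4 of the 30 WT GHRL-high cells held an HHEX UMI. IRX2 was 33.1 CPM in HET and 133.8 in WT SST-high cells, and 141.7 and 138.3 CPM in the cells with INS and GCG.

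HET SST-high cells were compared with WT SST-high cells on the TMM scale. Of 3577 genes past the minimum, 108 (3.02%) were at least 2-fold higher in HET and 269 (7.52%) at least 2-fold lower, so 28.6% of the calls were higher. That share was 39.8% in plain CPM and 41.4% in SST-free CPM. The counting interval left out equal levels for 103 and 227 of the calls. These sums held 18 and 89 cells in different proportions of SST bands, and single cells weighed heavily in HET: in 15 of the 108 higher genes 1 cell held over 50% of the HET counts.

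Of the 10 genes with the largest ratio in the higher direction, 8 had over 50% of their HET counts in 1 cell. ANXA1, with 63 of 64 counts, SVIL and S100A11 had them in the HET cell with 1407 SST per 10000. TPBG, CRABP2, SUCO and NR2F1 had them in the HET cell without CHGA, and SLC2A3 in another. PRTG and FOSB, an immediate early transcription factor, were the exceptions. FOSB had 30 counts in 9 of 18 HET cells, or 142 CPM, against 20 counts in 12 of 89 WT cells, or 17.5 CPM, and was 8.10-fold higher (4.45 to 15.1). FOS was 401.6 CPM in HET and 160.9 CPM in WT, JUN 288.2 and 139.9 CPM, and EGR1 122.8 and 59.5 CPM. Of 9 immediate early and dissociation genes past the minimum, 4 were at least 2-fold higher and none lower, with a median log2 ratio of 0.86 against -0.09 for all genes. The summed level of the 14 genes of that list was 2698 CPM in HET and 2505 CPM in WT SST-high cells. It was 3356 and 2487 CPM in INS-only cells.

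In the lower direction, the list was led by CGA, NTS, STMN4, FGA, ENC1, CDIPT, S100A14, PHOX2A, SMIM32 and VWA5A. NTS, which encodes neurotensin, had 37 counts in 9 of 18 HET cells, or 175 CPM, and 4335 counts in 62 of 89 WT cells, or 3792 CPM. It was 21.7-fold lower (15.7 to 30.9). A single WT cell held 1907 of the WT counts. PHOX2A, a neural crest factor, had 0 counts in HET and 146 in 9 WT cells, at least 9.01-fold lower against a floor of 3 counts. Of 8 neuronal genes past the minimum, 6 were at least 2-fold lower, among them NEFM at 921.3 CPM in HET and 2598 CPM in WT and NEFL at 179.5 and 431.2 CPM. The median of these genes was -1.34.

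Of 9 delta genes past the minimum, 4 were at least 2-fold lower: RBP4 (14.2 CPM in HET, 99.7 CPM in WT), LEPR (23.6 and 53.4 CPM), PDX1 (99.2 and 217.8 CPM) and BCHE (28.4 and 56.9 CPM). The intervals of LEPR and BCHE included equal levels. HHEX was 255.1 CPM in HET and 216.9 CPM in WT, a log2 ratio of 0.23. Without the top doublet scores, and so without the HET top band, that ratio was -2.88. Of 31 islet transcription factors, 9 were lower, such as INSM1 (85.1 and 192.4 CPM) and IRX2 (33.1 and 133.8 CPM), and ASCL2 was higher. Among processing genes PCSK2 was 23.6 CPM in HET and 104.1 CPM in WT, 4.41-fold lower (1.84 to 13.8), while PCSK1 was 113.4 and 133.8 CPM. INS was 5287 CPM in HET and 7687 CPM in WT. CHGA, the chromogranin A gene, was 3019 and 3739 CPM.

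**Figure D5:**
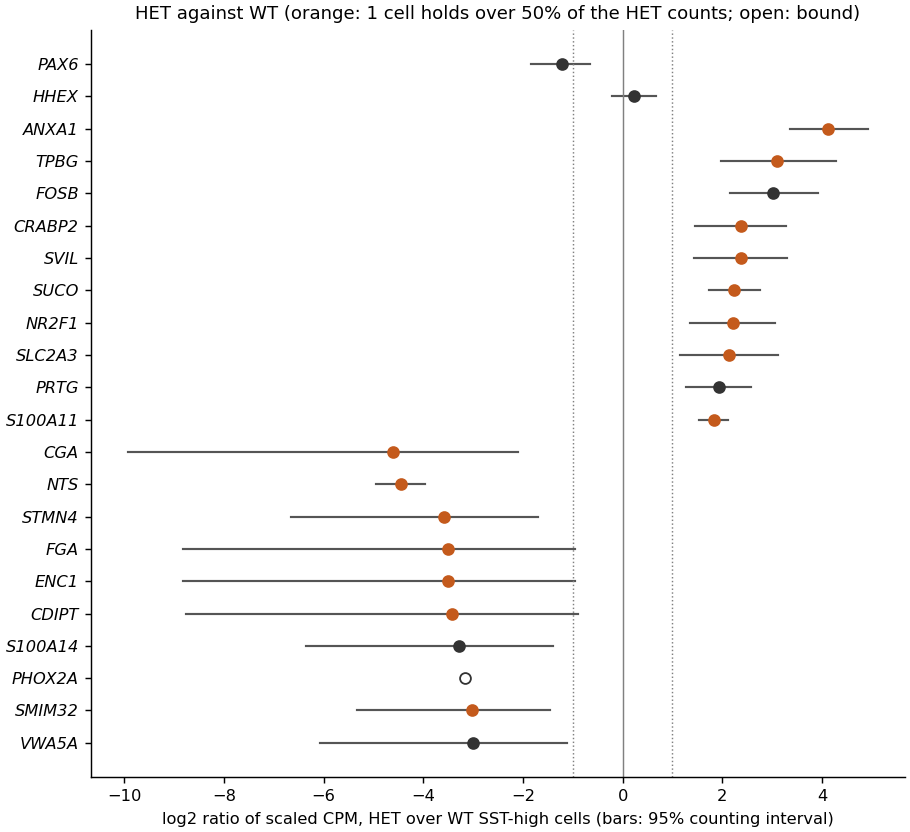
Log2 ratio of scaled CPM in HET over WT SST-high cells for PAX6, HHEX and the 20 genes named by rank; bars are 95% counting intervals, dotted lines mark 2-fold, orange points had over 50% of the HET counts in 1 cell and the open point is a bound from a count of 0. Of the 10 higher genes only FOSB and PRTG are not orange.

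The series' title names the IRE1α pathway, an endoplasmic reticulum stress sensor whose endonuclease activity splices XBP1 RNA. Counts per gene do not show splicing. Of 30 genes of an IRE1-XBP1 list, 24 passed the minimum in HET against WT SST-high cells. STT3A was at least 2-fold higher and HSPA13 at least 2-fold lower, and the median log2 ratio was 0.07 against -0.09 for all genes. XBP1 was 212.6 CPM in HET and 203.8 CPM in WT, and DNAJB9, an XBP1 target, was 103.9 and 92.7 CPM. HSPA5, the main chaperone of the reticulum, was 453.6 and 447.8 CPM. Against INS-only cells none of the 24 genes was 2-fold apart in both libraries. The top and low SST bands of WT also held no 2-fold difference among 24 such genes, with XBP1 at 295.1 and 215.6 SST-free CPM and a median log2 ratio of 0.36 against 0.03 for all genes.

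The 9 KO cells had 39, 68, 102, 53, 59, 42, 22, 28 and 49 SST UMIs from the highest SST share to the lowest. All 9 held CHGA UMIs, with 344 in all. INS UMIs were found in 5 of them, with 197 of 312 in 1 cell, and IAPP and PPY in none. ISL1 had 119 counts, SSTR2 127 and PDX1 5. LEPR had 0 counts in KO cells, against 5 in HET and 61 in WT. All 18 PHOX2A and all 14 TLX2 UMIs, from neural crest factor genes, were in the same KO cell, which had no INS or ISL1 UMI.

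Some members stood apart from the class. CHGA was detected in 17 of 18 HET, 9 of 9 KO and 89 of 89 WT cells, and EPCAM, an epithelial gene, in 16, 7 and 84. The HET cell without CHGA had 131 SST UMIs, 0 EPCAM UMIs and 6 of the 9 HET COL1A1 UMIs. Another HET cell held 16 of the 18 COL3A1 UMIs, 118 PPY UMIs and 12 of the 18 SLC2A3 UMIs. The 13 mesenchymal genes summed to 978 CPM in HET and 861.5 CPM in WT SST-high cells, with 3 and 5 of them at 0 counts. The proliferation genes MKI67 and TOP2A were detected in 0 and 1 HET cells, no KO cell, and 3 and 1 WT cells. PECAM1, an endothelial gene, had 0 counts in every SST-high cell and ALB, the liver albumin gene, had 3 counts, all in WT.

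The SST limit cut through a continuous range. Cells at 25 to 40 SST per 10000 numbered 5 in HET, 6 in KO and 12 in WT, with HHEX in 3, 0 and 1 of them. Cells just outside, at 10 to 25 per 10000, numbered 9, 6 and 34, with HHEX in 0, 1 and 5. Barcodes shared between libraries numbered 30 for HET and WT, 16 for KO and WT and 23 for HET and KO among kept cells. No barcode was SST-high in more than 1 library. However, 1 HET SST-high barcode was also a kept WT barcode, and 1 KO SST-high barcode was also a kept HET barcode.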

How the data were processed

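The authors deposited raw UMI counts per gene and barcode, 1 matrix of 33538 genes per library; per the file headers, Cell Ranger 6.1.2 wrote them. GRCh38 and Seurat are named in the submitters' processing notes. The sources used here give neither the annotation nor the barcode filter. The libraries held 136834433 (HET), 145948590 (KO) and 140068492 (WT) UMIs over 9628, 9726 and 9667 barcodes, none under 500 UMIs.

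From these deposited counts, cells were classed by the limits given above and summed per class and library. Sums were scaled to CPM with TMM factors (edgeR 4.0.16, R 4.3.3) over the HET and WT sums of 4 classes. Comparisons within SST-high cells used counts per 1000000 UMIs other than SST (SST-free CPM). A gene needed 50 CPM in 1 sum, 30 counts in both together and a 2-fold difference. No test was run, since each genotype had 1 library and the classes were cut from measured levels. Ratio intervals are exact conditional binomial, shares Clopper-Pearson and levels Poisson, all at 95%. A sum at 0 was given a floor of 3 counts. For thinned shares each cell was drawn once, and the exact mean over all draws was computed too. The calling steps were run on simulated sums without variation between cells, which cannot show how far single cells carry the calls.

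Scrublet (scanpy 1.11.5, expected rate 0.08) called 0 of 8294 HET, 8681 KO and 8488 WT kept barcodes, so it did not work and no doublet was removed. The alternative removes the top 8% of scores. The top 10 (HET against WT), 12 (against INS-only cells, and between SST bands) or 8 (with against without INS) called genes in each direction were named by rank, with SST, HHEX, PAX6, INS, GCG, GHRL, IAPP, PPY, PYY, CHGA and members of 24 gene lists at 20 CPM or more. The members, the lists and the rules were chosen with earlier results of these data known. Coordinates are from GENCODE 29. The promoter is from a RefSeq table. Results on some genes are not reported here.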

Additional observations from a re-analysis of the deposited data

Results flagged for a closer look

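NTS, the neurotensin gene, had opposite directions in the 2 libraries. Its log2 ratio of SST-high over INS-only cells was -1.99 in HET and 2.14 in WT. SST-high cells had 37 NTS counts in HET, or 175 CPM, and 4335 in WT, or 3792 CPM, against 692.5 and 861.8 CPM in INS-only cells. The difference between the libraries was not tested, as each is 1 sample. A single WT cell held 1907 of the WT counts and the highest HET cell 20 of the 37.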

How the results depend on the processing

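No paired analysis was possible because each genotype had 1 library. In HET against WT, the 269 lower genes numbered 756 at 10 CPM or with no level filter, 437 with every cell weighing the same, 674 without the top doublet scores, 413 with the stricter cell filter, 617 at an SST limit of 100 and 497 with INS under 25 only. The 108 higher genes numbered 342 with every cell weighing the same, 70 with INS under 25 only, 169 in SST-free CPM, 53 at an SST limit of 1000 and 182 with no upper UMI limit. Against INS-only cells the 36 lower genes numbered 99 at 10 CPM, 101 with no level filter, 20, 65 and 88 at SST limits of 10, 100 and 1000, and 97 with INS under 25 only. The 9 higher genes numbered 15 with INS under 25 only, 22 at an SST limit of 1000 and 5 with no upper UMI limit. The cause was not tested. The settings on the SST limit of 1000, the scale without SST, the deepest cell and the upper UMI limit were chosen after seeing the data.

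The share of SST-high cells was 0.119% in HET without the top doublet scores. In cells, this was 9 of 7585 in HET, against 9 of 7939 in KO and 79 of 7753 in WT. The share was 1.45% in WT at an SST limit of 10. At a limit of 100 it was 0.0965% in HET, 0% in KO and 0.683% in WT, and at 1000 it was 0.0603%, 0% and 0.342%. With INS under 25 only it was 0.0844% in HET and 0.353% in WT. The INS share was 27.8% in HET and 33.7% in WT at an INS limit of 100, and 80.9% in WT at 10.

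Log2 ratios that changed sign in HET against WT were SLC2A3 (-0.72) with the stricter filter, PPY (1.55) and TPBG (-0.29) at an SST limit of 100, and NR2F1 (-1.39), PRTG (-0.28) and S100A14 (0.31) at 1000. Against INS-only cells in HET they were GHRL (-2.01) without the top doublet scores, PPY (-1.48) with the stricter filter, and GCG (-0.35) and IGFBP6 (-2.53) at an SST limit of 100. With INS under 25 only they were GCG (-1.26), PPY (-1.68), PYY (-4.85) and IGFBP6 (-2.86). At an SST limit of 1000 they were GCG (-0.07) and IGFBP6 (-0.50), with IGFBP6 (-1.62) and ZNF503 (-0.04) in WT. IGFBP6 was -2.63 in HET without the deepest cell. Of the other single-gene values, 693 under planned and 232 under added settings stayed within the counting interval, and 217 and 89 moved beyond it, including changes of sign in ratios under 2-fold such as HHEX in HET against WT (-2.88 without the top doublet scores). A ratio with a count of 0 on 1 side gave no value where its bound pointed the other way. With 200419 UMIs in HET, a gene under 14.2 CPM could be at 0 counts.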
